A study of Mus musculus with 6 samples.

Results

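Translation initiation and termination factors were followed in the bone marrow of leukemic mice, in the form of 8 genes: Eif2s2, Eif3d, Eif3m, Eif4e2, Eif4g2, Eif2ak2, Ppp1r15b and Gspt1. They were chosen by exact gene symbol from a table that the authors deposited, which lists 4.41% of the 45101 probe sets of the array. The listed probe sets were selected on an unadjusted p-value under 0.05 between the 2 genotypes in an analysis of variance of RMA signals. Each of the 8 genes is named there by 1 probe set, among 1512 genes that a probe set with 1 symbol names. A gene could enter only through a difference between the groups on these arrays, so every difference given here describes how the genes were chosen and is not tested. Probe sets of the same genes that missed the threshold carry no name in the tables used here.

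The 3 Gfi1-KD mice and the 3 Gfi1-KI mice were adult, of the same age per the study's design, and all were labelled Vav-1 Nup98/HoxD13 tg; the Vav-1 promoter is active in blood-forming cells. As background, in Gfi1-KI mice the human GFI1 coding sequence stands in the mouse locus, and Gfi1-KD mice carry a form of that allele with reduced expression. GFI1 is a transcriptional repressor that blood-forming cells need in order to make granulocytes. No group without the transgene was analysed, and whole marrow after lysis of red cells gave 1 Affymetrix Mouse Genome 430 2.0 array per mouse. Gfi1 is not named in the deposited table, so its own level was not analysed here.

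Most translation in animal cells begins when eIF4E and eIF4G bring a capped mRNA to the small ribosomal subunit, where eIF3 and the eIF2 complex with initiator tRNA are assembled. Cells under stress, or carrying double-stranded RNA, slow this step by phosphorylating the alpha subunit of eIF2, and phosphatases with a PPP1R15 subunit remove that phosphate. Protein synthesis ends at a stop codon, which is read by eRF1 together with the GTPase eRF3.

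Promoter sequence was at hand for 6 of the 8 genes, as RefSeq windows of build GRCm38.p6 with 250 bases before and 50 after the annotated start. Eif4g2 and Ppp1r15b had none. The run CCGGAAG, a sequence that ETS family factors can bind, was searched on both strands. It stood in the windows of 4 of the 6 genes (Eif3d, Eif3m, Eif4e2 and Gspt1), against 8.86% of all 32851 windows. A gene counted with a match in any of its windows, and the windows were not matched for CG content, so enrichment was not tested. The 150 bases before the start of these 4 genes are shown because they carry that shared run, in capitals (CTTCCGG where it lies on the other strand). For Eif4e2 the most downstream of 3 annotated starts is shown.
Eif3d, chr15:77970825-77970974, minus strand: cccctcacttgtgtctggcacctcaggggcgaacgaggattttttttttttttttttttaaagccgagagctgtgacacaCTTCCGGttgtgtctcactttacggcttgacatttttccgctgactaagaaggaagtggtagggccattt
Eif3m, chr2:105017028-105017177, minus strand: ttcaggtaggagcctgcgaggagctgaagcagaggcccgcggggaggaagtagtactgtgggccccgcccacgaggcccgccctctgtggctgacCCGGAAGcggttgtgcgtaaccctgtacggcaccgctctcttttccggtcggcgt
Eif4e2, chr1:87213789-87213938, plus strand: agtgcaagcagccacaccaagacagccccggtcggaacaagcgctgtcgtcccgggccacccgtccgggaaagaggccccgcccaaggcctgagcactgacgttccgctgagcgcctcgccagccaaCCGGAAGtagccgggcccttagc
Gspt1, chr16:11254326-11254475, minus strand: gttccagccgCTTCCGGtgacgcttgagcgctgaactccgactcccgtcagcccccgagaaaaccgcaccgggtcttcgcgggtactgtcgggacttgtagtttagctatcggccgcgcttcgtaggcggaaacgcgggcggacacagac

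The run began 70 bases before the start in Eif3d, 55 before it in Eif3m, 23 in Eif4e2 and 140 in Gspt1. The interferon response element, searched on both strands as GAAA, any 2 bases and GAAA, was found in 1 of the 6 genes, Eif2ak2, and in 3.44% of all windows. It lay just after the start, in 30 bases shown for the element in capitals.
Eif2ak2, chr17:78882535-78882564, minus strand: agtccgccggGAAAACGAAAcagaagagaa

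The GFI1 consensus, searched on both strands as AAATCAC, any base and GC, was in none of the 6 windows and in 0.201% of all. Its core AATC was in 4 of the 6 (Eif3d, Eif3m, Eif4e2 and Eif2ak2), against 73.1% of all windows. The E-box CACGTG (7.15% of all windows) and the TATA run TATAAA (13.6%) had no match in the 6 genes. The 250 bases before the start held 12 to 27 CG dinucleotides in these genes, where the median of all windows was 6. These matches describe letters and not binding.

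The probe sets differ in how directly they report on the named gene. Those of Eif2s2, Eif4g2, Eif2ak2, Ppp1r15b and Gspt1 were assigned in the deposited annotation through 11 matching probes each (grade A). For the Eif2ak2 probe set no genome position was read, so its overlap with the gene was not checked. In 3 genes the assignment rests on overlap in the genome, and no matching probes were read for them. The Eif4e2 target lies inside the gene on its own strand (chromosome 1, 87226992 to 87229215, grade C). The Eif3m target was aligned to chromosome 1 (21511862 to 21512311), while the gene itself lies on chromosome 2, and up to 8 of its probes are listed as cross-hybridising with another transcript (grade B). The Eif3d target lies within the gene on chromosome 15 (77961779 to 77963181) but on the opposite strand. Its assignments in the annotation also mention a long noncoding RNA and an antisense transcript, which may be the same one. The signals called Eif3d and Eif3m below may thus come from other transcripts than the mRNA, which was not tested. Whether the Eif4e2 signal comes from its mRNA was not tested either. In Eif2s2, up to 7 probes of the probe set are listed as cross-hybridising with another transcript.

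One array stood apart before any gene was compared. Over the 22519 probe sets at or above the median level, Gfi1-KI replicate 2 had a median Pearson r of 0.889 with the other 5 arrays, where the other arrays had 0.912 to 0.949. Differences without it are therefore given for each gene. In the RMA signals, 7 of the 8 genes had a lower mean in Gfi1-KD and 1, Gspt1, a higher one. Among all listed probe sets, 42.9% were lower in Gfi1-KD. The median log2 difference was -0.28 for the 8 genes and 0.14 for all listed probe sets. The sizes were small: the largest was 1.36-fold, and the median size of the log2 difference, 0.28, was near that of all listed probe sets, 0.26. The groups did not overlap in any of the 8, as in 99.9% of the listed probe sets, a consequence of the selection by p-value.

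Eif2s2 encodes the beta subunit of eIF2, the complex that carries initiator tRNA to the ribosome (chromosome 2, 154871410 to 154892906, build GRCm38.p6; probe set 1417712_at). Its log2 RMA signal was 12.46, 12.62 and 12.58 in Gfi1-KD and 12.77, 13.12 and 12.85 in Gfi1-KI. The gap between the groups was 0.14, and Gfi1-KI replicate 2 was the highest array. The Gfi1-KD mean was 12.55 ± 0.08 and the Gfi1-KI mean 12.91 ± 0.18 (SD, n = 3 each), a log2 difference of -0.36 ± 0.12 (SE), or 1.28-fold lower. Without Gfi1-KI replicate 2 the difference was -0.25. In the MAS5 signals, a linear scale, it read 13316, 15434 and 14458 in Gfi1-KD and 15950, 20547 and 15435 in Gfi1-KI. The highest Gfi1-KD array there lay within 1 signal unit of the lowest Gfi1-KI array. The MAS5 log2 difference was -0.26 ± 0.14 (SE), and -0.13 without Gfi1-KI replicate 2, so its size rested in large part on that array.

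Eif3d and Eif3m encode subunits of eIF3, the large scaffold of the initiation complex; the EIF3D protein can itself bind the mRNA cap. The probe set under Eif3d (1446997_at; gene on chromosome 15, 77958998 to 77970824) had log2 RMA signals of 6.31, 6.29 and 6.30 in Gfi1-KD and 6.33, 6.39 and 6.41 in Gfi1-KI. The groups were 0.02 apart, and the difference of -0.08 ± 0.02 (SE; 1.05-fold lower) was the smallest of the 8. It was -0.07 without Gfi1-KI replicate 2. In the MAS5 signals the direction was the opposite. They read 28.3, 20.6 and 28.9 in Gfi1-KD and 19.5, 21.1 and 12.0 in Gfi1-KI, far below the level filter of 123.6, with a log2 difference of 0.59 ± 0.30 (SE), or 0.34 without Gfi1-KI replicate 3, 0.74 without Gfi1-KI replicate 2 and 0.33 with 16 added to each signal before log2. Gfi1-KD replicate 2 there lay below Gfi1-KI replicate 2, so the groups overlapped.

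The probe set under Eif3m (1437189_x_at; gene on chromosome 2, 104999656 to 105017027) had log2 RMA signals of 3.51, 3.63 and 3.46 in Gfi1-KD and 3.67, 3.88 and 3.88 in Gfi1-KI. These were the lowest RMA signals of all the genes followed, and no background level was set for RMA. The highest Gfi1-KD array was 0.04 below the lowest Gfi1-KI array. The difference was -0.28 ± 0.09 (SE; 1.21-fold lower), and -0.24 without Gfi1-KI replicate 2. Its MAS5 signals were 35.9, 236.5 and 157.9 in Gfi1-KD and 116.5, 64.1 and 314.1 in Gfi1-KI. The arrays of both groups were interleaved there and spanned 8.74-fold, and the log2 difference of -0.27 had an SE of 1.06. It turned to 0.54 when Gfi1-KD replicate 1 was left out and to 0.35 when Gfi1-KI replicate 3 was, and it was -0.79 without Gfi1-KI replicate 2, so MAS5 gave no settled direction for this probe set. Its mean MAS5 level also lay just below the filter.

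Eif4e2 encodes 4EHP, a cap-binding relative of eIF4E that does not engage eIF4G and represses the mRNAs it binds (gene on chromosome 1, 87213911 to 87240488; probe set 1435804_at). Its log2 RMA signal was 7.48, 7.37 and 7.36 in Gfi1-KD and 7.66, 7.63 and 7.76 in Gfi1-KI. The gap of 0.15 between the groups was the widest of the 8, with an SD of 0.07 in both. The difference was -0.28 ± 0.06 (SE; 1.21-fold lower), and -0.30 without Gfi1-KI replicate 2. In the authors' deposited table it had the smallest p-value of the 8, 0.00759, at rank 244 of the listed probe sets. The MAS5 signals did not separate the groups. They were 317.3, 269.9 and 210.8 in Gfi1-KD and 319.9, 250.3 and 297.3 in Gfi1-KI, a log2 difference of -0.13 ± 0.20 (SE). It turned to 0.025 when Gfi1-KD replicate 3 was left out, and it was -0.23 without Gfi1-KI replicate 2.

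Eif4g2 encodes DAP5, an eIF4G relative that lacks the eIF4E-binding part and serves initiation that does not use eIF4E (chromosome 7, 111067985 to 111083030; probe set 1428362_at). Its log2 RMA signal was 11.63, 11.50 and 11.37 in Gfi1-KD and 11.66, 11.88 and 11.96 in Gfi1-KI. Gfi1-KD replicate 1 and Gfi1-KI replicate 1 were only 0.02 apart, and the other arrays lay further out on either side. The difference was -0.33 ± 0.12 (SE; 1.26-fold lower), and -0.31 without Gfi1-KI replicate 2. In the authors' deposited table its p-value, 0.0499952, was the largest listed, just inside the threshold of 0.05; rows outside it hold no values. The MAS5 signals were 6414, 5706 and 5277 in Gfi1-KD and 6596, 7481 and 8438 in Gfi1-KI. The groups again did not overlap, and the MAS5 log2 difference of -0.37 ± 0.13 (SE) was close to that of the RMA signals, also without Gfi1-KI replicate 2 (-0.37).

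**Figure D1:**
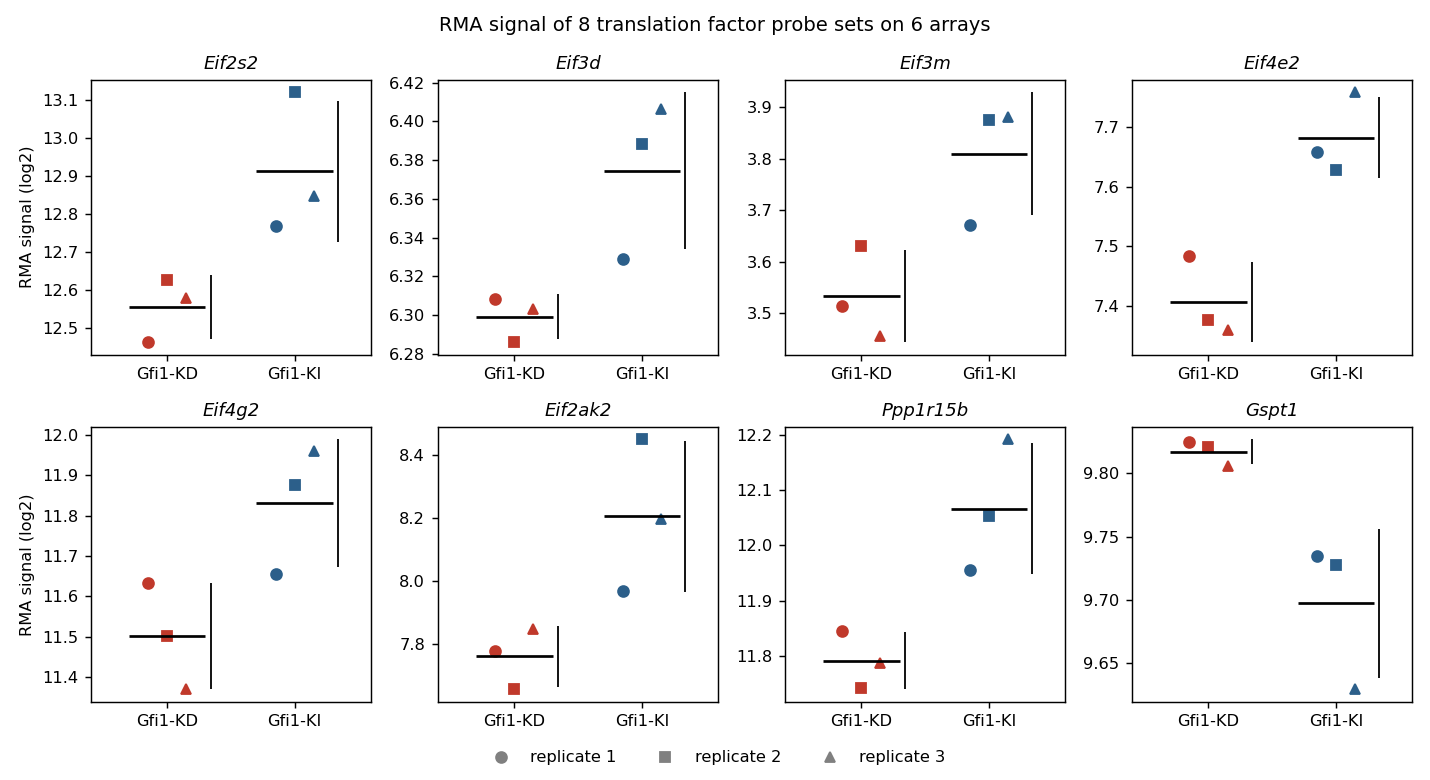
Log2 RMA signal (vertical axis, a separate range in each panel) of the probe sets under the 8 genes, for 3 Gfi1-KD arrays on the left and 3 Gfi1-KI arrays on the right of each panel. Symbols are arrays, horizontal lines are means and vertical lines are ± 1 SD. Gfi1-KD lies below Gfi1-KI in 7 panels and above it in Gspt1, with no overlap in any, a consequence of the selection by p-value.

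Eif2ak2 and Ppp1r15b act on the phosphate of eIF2 from opposite sides, and both had lower means in Gfi1-KD. Eif2ak2 encodes PKR, a kinase of eIF2 alpha that double-stranded RNA activates and interferon induces (chromosome 17, 78850504 to 78882572; probe set 1440866_at). Its log2 RMA signal was 7.78, 7.66 and 7.85 in Gfi1-KD and 7.97, 8.45 and 8.20 in Gfi1-KI. All Gfi1-KD arrays lay at least 0.12 below the lowest Gfi1-KI array, and Gfi1-KI replicate 2 was the highest. The difference of -0.45 ± 0.15 (SE; 1.36-fold lower) was the largest of the 8 in the RMA signals, and it was -0.32 without Gfi1-KI replicate 2. The MAS5 signals were 687.6, 614.1 and 657.2 in Gfi1-KD and 780.9, 1029 and 856.3 in Gfi1-KI. There the gap was wider, 0.18 on the log2 scale, and the difference was nearly the same (-0.44 ± 0.13, SE; -0.33 without Gfi1-KI replicate 2).

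Ppp1r15b encodes CReP, the subunit that directs protein phosphatase 1 to eIF2 alpha in unstressed cells (chromosome 1, 133131166 to 133139800; probe set 1426798_a_at). Its log2 RMA signal was 11.84, 11.74 and 11.79 in Gfi1-KD and 11.96, 12.05 and 12.19 in Gfi1-KI. The groups were 0.11 apart and the difference was -0.28 ± 0.07 (SE; 1.21-fold lower), as it was without Gfi1-KI replicate 2 (-0.28). The MAS5 signals overlapped: they were 9870, 8407 and 8796 in Gfi1-KD and 8343, 9242 and 13360 in Gfi1-KI. Gfi1-KI replicate 1 was the lowest of all 6 arrays there and Gfi1-KI replicate 3 the highest. The MAS5 log2 difference was -0.17 ± 0.22 (SE), 0.036 without Gfi1-KI replicate 3 and -0.23 without Gfi1-KI replicate 2.

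Gspt1 encodes eRF3a, the GTPase that works with eRF1 at stop codons (chromosome 16, 11216240 to 11254325, probe set 1435000_at). In the RMA signals it was the 1 gene with a higher mean in Gfi1-KD. Its log2 RMA signal was 9.82, 9.82 and 9.81 in Gfi1-KD and 9.73, 9.73 and 9.63 in Gfi1-KI. The Gfi1-KD arrays lay within 0.02 of each other and 0.07 above the highest Gfi1-KI array. The difference was 0.12 ± 0.03 (SE; 1.09-fold higher), and 0.13 without Gfi1-KI replicate 2. The MAS5 signals were 1974, 1910 and 1914 in Gfi1-KD and 1903, 1764 and 1709 in Gfi1-KI. They did not overlap either, by a narrow margin between Gfi1-KD replicate 2 and Gfi1-KI replicate 1, and the log2 difference was 0.11 ± 0.05 (SE; 0.10 without Gfi1-KI replicate 2).

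**Figure D2:**
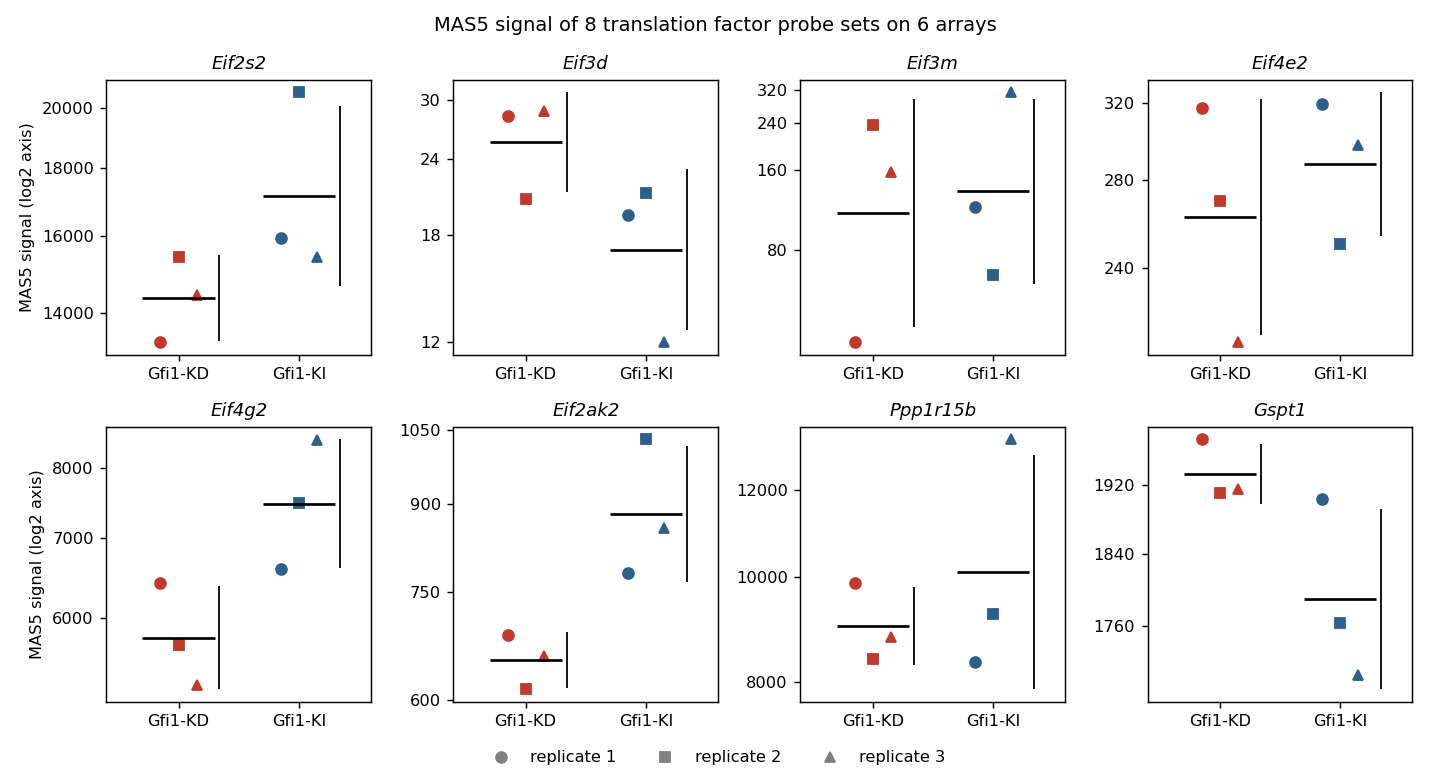
MAS5 signal (vertical axis, log2 spacing with a separate range in each panel) of the same probe sets, Gfi1-KD on the left and Gfi1-KI on the right. Symbols are arrays, horizontal lines geometric means and vertical lines ± 1 SD of the log2 signal; the groups do not overlap in Eif2s2, Eif4g2, Eif2ak2 and Gspt1 and overlap in Eif3d, Eif3m, Eif4e2 and Ppp1r15b.

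The MAS5 values of the same arrays, as deposited, thus kept the groups apart in 4 of the 8 genes: Eif2s2, Eif4g2, Eif2ak2 and Gspt1. All 4 were among the 6 genes at or above the level filter. There, 11.3% of the 22519 tested probe sets (2554) had groups that did not overlap. Of the 6 genes, 3 had groups that did not overlap and a lower mean in Gfi1-KD, against 4.57% of all tested (1029 probe sets). The genes were selected on RMA signals of these same arrays, so their shares are not independent of that selection and were not tested. The log2 gap between the groups was only 8.4e-05 in Eif2s2 and 0.005 in Gspt1. Median MAS5 signals of the arrays ran from 117.0 (Gfi1-KD replicate 2) to 148.1 (Gfi1-KD replicate 3). Gaps this narrow depend on how the arrays are scaled, and overlap was not counted again after rescaling. The direction was that of the RMA signals in 7 of the 8, with Eif3d as the exception. Of the 6 genes at or above the filter, 5 had a lower MAS5 mean in Gfi1-KD, against 47.5% of all tested probe sets. When limma was fitted to the MAS5 signals of all 22519 probe sets, 0 passed an adjusted p of 0.05 (0%), and 1217 had an unadjusted p under 0.05 (5.40%). Of the 6 genes that entered that fit, 0 passed the adjusted threshold and 0 the unadjusted one; Eif3d and Eif3m were below its level filter. The authors' deposited table gave each of the 8 the same step-up adjusted p, 0.911.

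**Figure D3:**
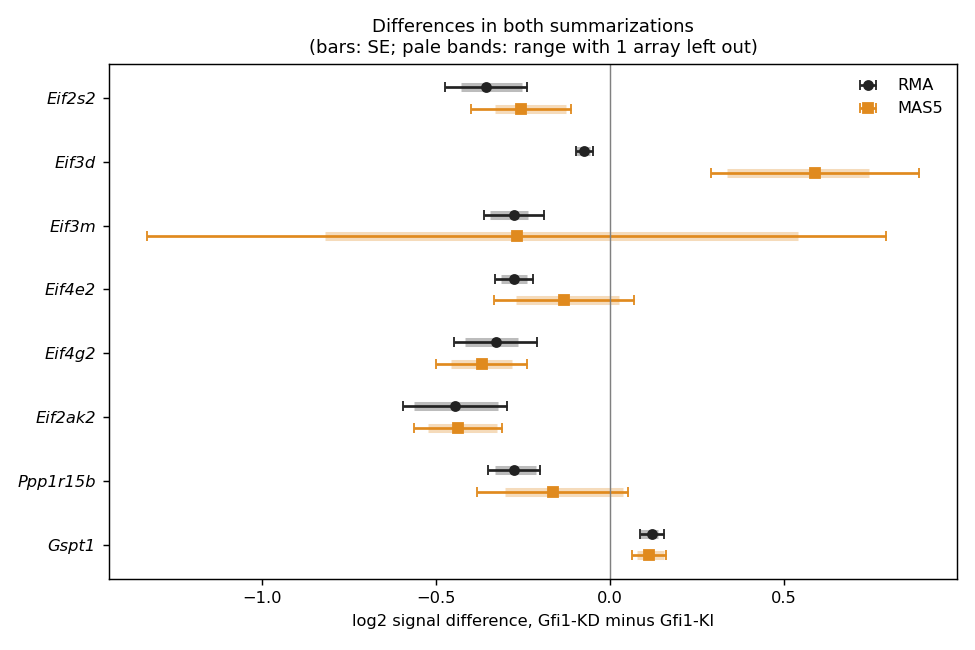
Log2 signal difference, Gfi1-KD minus Gfi1-KI (horizontal axis), for each gene in the RMA signals (black circles) and the MAS5 signals (orange squares), with SE bars and pale bands for the lowest to highest value when 1 array is left out. The MAS5 bands of Eif3m, Eif4e2 and Ppp1r15b cross 0 and the MAS5 value of Eif3d lies above 0; the RMA bands cannot cross 0, since the probe sets were selected on RMA values whose groups do not overlap.

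Across the 6 arrays, the lowest RMA signal of a gene lay on Gfi1-KD replicate 2 in 3 genes (Eif3d, Eif2ak2 and Ppp1r15b), on Gfi1-KD replicate 3 in 3 (Eif3m, Eif4e2 and Eif4g2) and on Gfi1-KD replicate 1 in Eif2s2. Gfi1-KI replicate 3 was the highest array in 5 of the 8 genes (Eif3d, Eif3m, Eif4e2, Eif4g2 and Ppp1r15b), and also the lowest in Gspt1. Gfi1-KI replicate 2 was the highest in Eif2s2 and Eif2ak2, and Gfi1-KD replicate 1 in Gspt1. Gfi1-KI replicate 1 was the lowest Gfi1-KI array in 6 of the 7 genes with a lower mean in Gfi1-KD, all but Eif4e2. By a fixed rule, each gene was also set against 1504 other named genes of the table by the mean absolute difference of the centred log2 RMA profiles over 6 arrays. The nearest profile was that of Taf2 for Eif2s2 (0.03), Gm11627 for Eif3d (0.02), Amtn for Eif3m (0.02) and Foxo3 for Eif4e2 (0.02). It was that of Grb7 for Eif4g2 (0.03), Taf4a for Eif2ak2 (0.04), Hes5 for Ppp1r15b (0.02) and Cytl1 for Gspt1 (0.02). These genes were listed by the same p-value, so closeness in the group difference is shared by selection.

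The rest of the pathway could be followed only where the deposited table names a gene. It names 1 of 19 genes of the eIF2, eIF2B, eIF1 and eIF5 list (Eif2s2). It also names 2 of 14 eIF3 subunits and 2 of 25 cap-binding and eIF4 genes. These are the genes described above, each lower in Gfi1-KD in the RMA signals. In the MAS5 signals Eif3d was higher, and Eif3m and Eif4e2 turned direction when 1 array was left out. Of 17 termination and nonsense-mediated decay genes it names Gspt1. Of 19 genes of the eIF2 alpha kinases, phosphatases and their targets it names 4, of which 3 were lower and 1 higher. Beside Eif2ak2 and Ppp1r15b these were the protein phosphatase 1 catalytic subunits Ppp1cc and Ppp1cb, the enzymes that PPP1R15 proteins direct. Ppp1cc had log2 RMA signals of 13.47, 13.55 and 13.41 in Gfi1-KD and 13.66, 13.65 and 13.65 in Gfi1-KI, a difference of -0.18 ± 0.04 (SE). Ppp1cb had 8.90, 8.91 and 8.99 in Gfi1-KD and 8.67, 8.54 and 8.74 in Gfi1-KI, a difference of 0.28 ± 0.07 (SE). The 2 catalytic subunits thus lay in opposite directions.

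Of 13 elongation factor genes the table names Dph1, an enzyme of the diphthamide modification of eEF2, with a difference of 0.20 ± 0.02 (SE) with Gfi1-KD at a mean log2 RMA signal of 4.89 ± 0.03 and Gfi1-KI at 4.68 ± 0.02 (SD, n = 3 each). Of 15 genes of the mTORC1 and S6 kinase list it names Mtor, the kinase that licenses cap-dependent initiation. Gfi1-KD was at a mean of 4.92 ± 0.16 there and Gfi1-KI at 4.61 ± 0.06 (SD, n = 3 each), a difference of 0.31 ± 0.10 (SE). The probe sets of Dph1 and Mtor both lay below the level filter in the MAS5 signals. The other 110 genes of these 7 lists are not named by a listed probe set with 1 symbol, and their levels were not analysed here.

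Markers of marrow cell types that the same table names differed between the genotypes too, which is how they came to be listed. Of 14 late neutrophil genes the table names 4 (Ltf, Lrg1, Itgb2l and Ceacam10), all lower in Gfi1-KD. Their summed MAS5 signal ranged over 458.0 to 4960 on the Gfi1-KD arrays, against 21739 to 49784 on the Gfi1-KI arrays. Of 12 monocyte and macrophage genes it names 5 (Csf1r, Cx3cr1, Ccr2, Ctss and Hmox1), all higher, with sums of 52686 to 73843 on the Gfi1-KD arrays, against 26508 to 39819 on the Gfi1-KI arrays. The groups did not overlap in either sum, which the selection by p-value on these arrays largely fixed in advance. The genes of these lists that the table does not name were not analysed. Cd28, 1 of 8 T and NK cell genes, read 703.4 to 1266 on the Gfi1-KD arrays, against 255.3 to 415.8 on the Gfi1-KI arrays. Pax5, 1 of 8 B cell genes, overlapped, with 90.4 to 116.8 on the Gfi1-KD arrays, against 23.2 to 129.6 on the Gfi1-KI arrays. None of 10 erythroid genes is named, and of 15 interferon-stimulated genes 2 are: Eif2ak2, which was lower in Gfi1-KD, and 1 other, which went the opposite way. No named marker read 0 on any array. In whole marrow, fewer cells of a type and less RNA per cell cannot be told apart, and the part of cell composition in the translation factor signals was not tested.

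**Figure D4:**
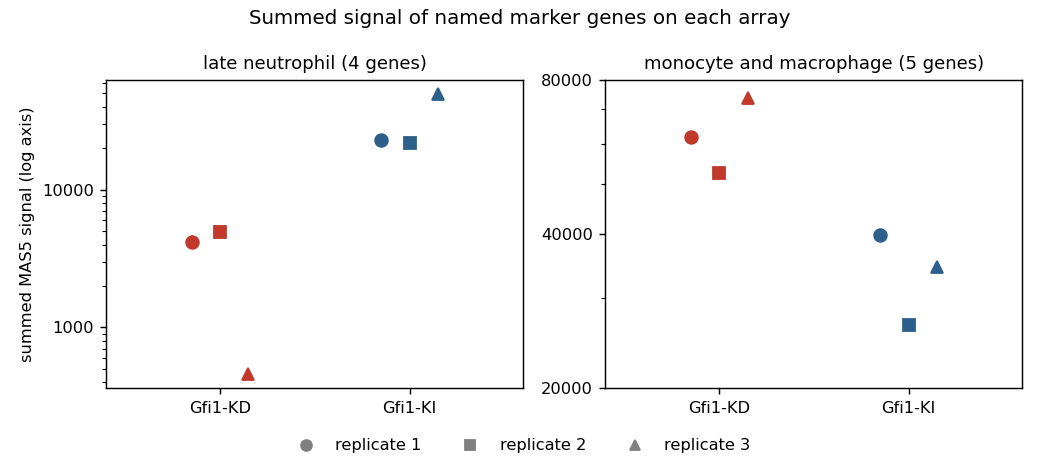
Summed MAS5 signal (vertical axis, log scale) of the named late neutrophil genes (left panel, 4 genes) and of the named monocyte and macrophage genes (right panel, 5 genes) on each array, Gfi1-KD left and Gfi1-KI right of each panel. The neutrophil sums of Gfi1-KD lie below, and the monocyte sums above, those of every Gfi1-KI array. The genes summed were listed by p-value on these same arrays.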

How the data were processed

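Genotype labels gave the groups; replicate numbers follow the deposit order and pair no arrays. The deposited comparison table holds log2 RMA signals, p-values, step-up p-values, a linear ratio (kd over wt) and a signed fold score, per the file headers; wt was read as Gfi1-KI, and the deposited ratio was recomputed within 0.00449% in every filled row. Columns were matched to mice by the animal number. The second table holds linear intensity values deposited by the authors; the submitters' processing notes name MAS5. MAS5 values under 1 were set to 1 before log2, with no further normalization, and probe sets with a mean log2 signal of at least 6.95, the median of the 45037 non-control probe sets, were tested. The fit used limma 3.58.1 (R 4.3.3): lmFit, then eBayes with trend, two-sided p-values adjusted by Benjamini-Hochberg. The same fit was run on simulated arrays with independent normal values per probe set. Those hold no array-wide shift and no outlying array, so they say nothing about either. Differences are Gfi1-KD minus Gfi1-KI means of log2 signals, and their SE comes from the group SDs. With 3 arrays against 3 an exact permutation test cannot go below 0.1, and the number of arrays limits precision. The genes, lists and rules were chosen with earlier results of these data known. Genes named beyond the 8 are those of the pathway and marker lists in the deposited table, and the nearest profile of each gene. A list gene was represented by its listed probe set with the highest mean MAS5 signal. Promoters and coordinates are RefSeq's for GRCm38.p6, the build number of the deposited annotation. Some genes of the interferon list are not reported here. Python 3.11.15 with pandas 2.3.3, numpy 2.4.6 and matplotlib 3.10.9 was used.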

Additional observations from a re-analysis of the deposited data

How the results depend on the processing

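With MAS5 in place of RMA signals, 2 genes and not 1 had a higher mean in Gfi1-KD, since Eif3d turned to 0.59; Eif4e2 moved to -0.13 and Ppp1r15b to -0.17. Within the MAS5 signals, leaving out 1 array gave -0.82 to 0.54 for Eif3m, -0.27 to 0.025 for Eif4e2 and -0.30 to 0.036 for Ppp1r15b, so each turned its direction. Quantile normalization, centring on the median and adding 16 before log2 changed no direction. Whether the groups still did not overlap in these settings was not counted. limma called 0 probe sets with no level filter (all 8 genes tested), a stricter one (4 of the 8 tested), and these 3 settings, array weights or any 1 array left out (6 of the 8 tested). At an unadjusted p under 0.05 the count over all probe sets, 1217, was 2311 with no level filter (45037 tested) and 690 with the stricter one (11260 tested), and with 1 array left out it ran from 539 (without Gfi1-KD replicate 3) to 2126 (without Gfi1-KI replicate 1); of the 6 genes tested, 1 reached it after quantile normalization and 1 without Gfi1-KI replicate 1. The cause of these changes was not tested. Each array came from a different mouse and the labels pair no arrays across the groups, so no paired analysis was made. The mean MAS5 signals of Eif3d and Eif3m lay below the level filter.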
